A study of Mus musculus with 36 samples.

Results

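The sodium pump beta subunit genes Atp1b1 and Atp1b2 and the chloride cotransporter genes Slc12a2 and Slc12a5 were followed through neuronal stimulation. They were chosen by name, and these 4 were found among the 26709 genes of the RNA table and among the 16209 genes that passed the filter on low values. The cells were primary cortical neurons from CD-1 mouse embryos at embryonic day 15, kept 7 days in vitro and silenced for 2 h with 100 µM AP-5 (an NMDA receptor blocker) and 1 µM TTX (a sodium channel blocker). All 9 groups share this silencing. Stimulation was with 10 ng/ml BDNF, the neurotrophin that binds the TrkB receptor, or with 55 mM KCl, which depolarizes the membrane, for 1, 6 or 10 h. Controls were kept under AP-5 and TTX over the same 3 times. RNA-seq and ATAC-seq, an assay of open chromatin, each had 2 libraries per group, so that 6 control libraries served as the reference of every stimulated group and all comparisons with controls share them.

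The sodium pump (Na+/K+-ATPase) exports sodium and imports potassium, and so maintains the gradients that neurons spend when they fire. An alpha subunit carries out the transport and a beta subunit brings it to the membrane and tunes its affinity for potassium. Atp1b1 encodes the beta subunit most used by neurons, and Atp1b2 encodes the beta subunit also known as adhesion molecule on glia. Slc12a2 encodes NKCC1, which carries chloride into the cell with sodium and potassium, and Slc12a5 encodes KCC2, the neuronal cotransporter that extrudes chloride with potassium. The balance between these transporters sets the chloride gradient on which the action of GABA depends, and a rise of KCC2 relative to NKCC1 is a well known step of neuronal maturation.

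RNA libraries held 8508452 to 36699187 reads and ATAC libraries 1241829 to 6236439 reads in peaks. The KCl 6 h library B stood apart in RNA, where the predicted gene Gm42418 took 3.26% of its counts and was the top gene, while COX1 was the top gene in the other libraries at 0.64% to 1.01%. The shallowest ATAC library was also 1 of the pair at KCl 6 h. Pan-neuronal markers Tubb3, Rbfox3, Map2, Snap25, Syt1 and Stmn2 were all detected (6 of 6 past the filter). Markers of astrocytes (9 of 10), dividing progenitors (6 of 6) and the oligodendrocyte lineage (7 of 7) passed too, against 4 of 6 for microglia and 3 of 6 for vascular cells, so the cultures held other cells beside neurons. In bulk RNA, fewer cells of a type and less RNA per cell cannot be told apart. With limma, 0 genes were called between controls of 6 h or 10 h and controls of 1 h, where 164 and 181 genes had an unadjusted p under 0.05, and edgeR and DESeq2 called 0 as well. Both counts lie below the share of 0.05 expected without any difference, and with 2 libraries per time a drift can be missed.

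A gene was called when its limma adjusted p (Benjamini-Hochberg over all 16209 genes, two-sided) was under 0.1, and a log2 fold change is a difference on the log2(normalized count + 1) scale against the 6 controls, given ± SE. Under BDNF, 2 of the 4 genes were called at 1 h, 4 at 6 h and 4 at 10 h, where 40.4%, 43.3% and 40.6% of all genes tested were called. Under KCl, 2 were called at 1 h, 4 at 6 h and 3 at 10 h, where 54.7%, 66.5% and 57.2% of all genes were called. With calls this common, the size and direction of each change say more than the count. Atp1b1 was the gene of the 4 that was higher at all 3 times of both stimuli, and Atp1b2 and Slc12a5 were lower at 6 and 10 h of both stimuli. Slc12a5 was also called higher at KCl 1 h. Slc12a2 was called higher at 1 h of BDNF and lower at 6 and 10 h of BDNF, and each of these calls could be lost by leaving out 1 library. Under KCl the only call of Slc12a2 was a rise at 6 h that rested on 1 library.

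**Figure D1:**
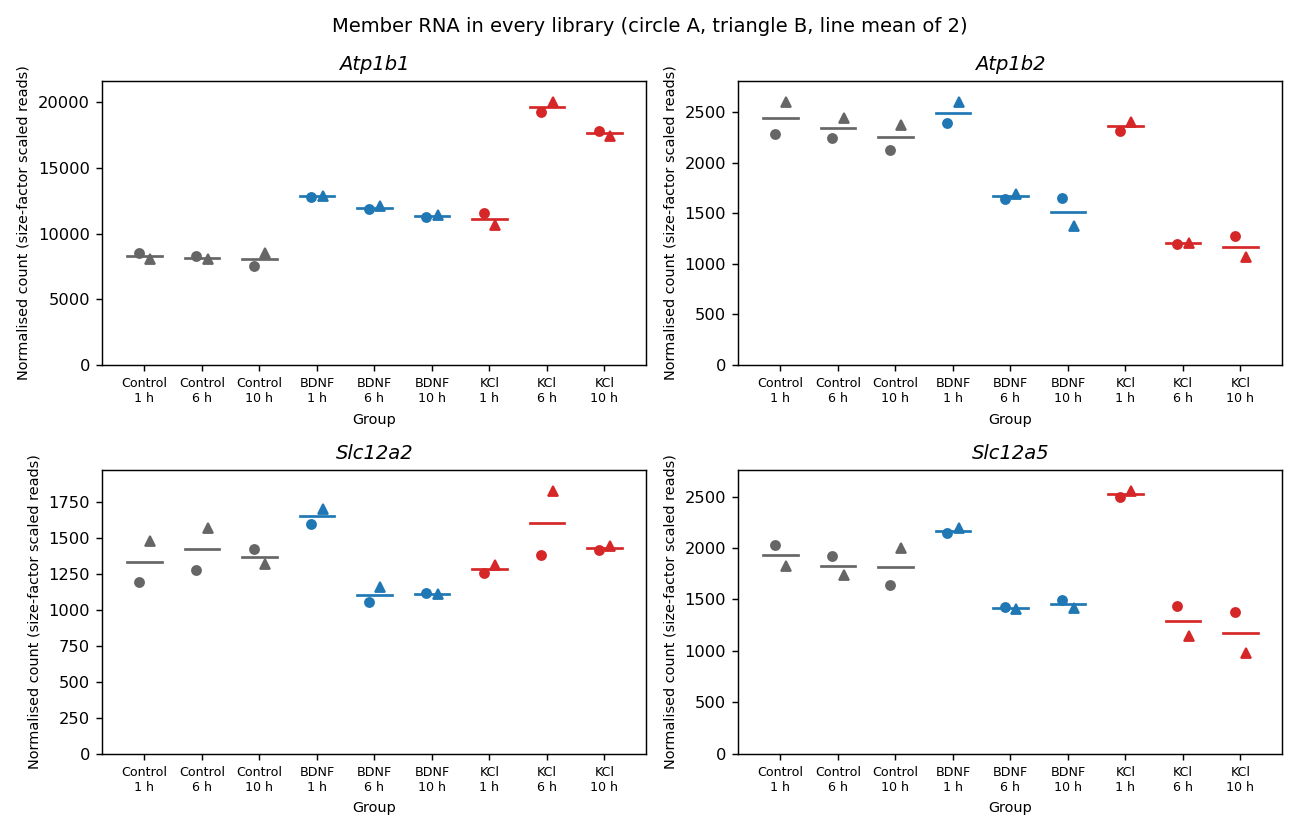
Normalized count (vertical axis, from 0) of the 4 genes in each of the 18 RNA libraries, by stimulus and time (circles library A, triangles library B, lines the mean of 2). Atp1b1 reached 20027 in 1 KCl 6 h library against at most 8548 in controls, while Atp1b2 and Slc12a5 sat below every control at 6 and 10 h of both stimuli.

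Atp1b1 (ENSMUSG00000026576) lies on the reverse strand at chr1:164437109-164458355 of GRCm38 and has 3081 bp of exons. Its last 617 bp overlap the gene Nme7 on the forward strand. The strand setting of the read counting is not given in the sources used here, so reads in that stretch cannot be told apart. Nme7 was lower at KCl 6 h (log2 fold change −0.53 ± 0.17, limma adjusted p = 0.00899). The part of Nme7 reads in the Atp1b1 counts was not tested. The RefSeq promoter of Atp1b1 (GRCm38.p6, chr1:164458306-164458605, reverse strand, 71.0% G and C) is shown because all of its 300 bases lie in an ATAC peak. The 251 bp ATAC peak that begins 3485 bp upstream of the 5′ end of the gene (chr1:164461840-164462090, forward strand, 58.2% G and C) is shown because it opened under BDNF. Capitals mark every match, on either strand, to 7 motifs. The letters searched were TGACGTCA for the CRE, TGANTCA for AP-1 sites, GCGNGGGCG for EGR sites, CACGTG for the E-box, GGGCGG for the GC box, CCAAT for the CCAAT box, and TATAAA for the TATA box.
Atp1b1 promoter: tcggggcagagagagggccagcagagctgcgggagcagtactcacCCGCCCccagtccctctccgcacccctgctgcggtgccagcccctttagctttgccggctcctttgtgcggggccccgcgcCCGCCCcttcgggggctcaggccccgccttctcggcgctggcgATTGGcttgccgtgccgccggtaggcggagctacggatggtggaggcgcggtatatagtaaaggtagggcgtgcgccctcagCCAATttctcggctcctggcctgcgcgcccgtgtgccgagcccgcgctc
Atp1b1 upstream peak: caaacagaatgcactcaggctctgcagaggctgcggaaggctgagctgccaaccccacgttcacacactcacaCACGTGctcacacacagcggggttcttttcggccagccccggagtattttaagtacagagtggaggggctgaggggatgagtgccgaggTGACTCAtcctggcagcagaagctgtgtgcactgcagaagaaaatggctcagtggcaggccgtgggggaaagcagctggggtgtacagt
The promoter held 2 GC boxes and 2 CCAAT boxes and no match to the other 5 motifs. Among 32851 RefSeq promoters of the same length, 35.7% held a GC box and 37.4% a CCAAT box. The upstream peak held an E-box at bases 74 to 79 and an AP-1 match at bases 163 to 169. Among the central 251 bases of 43583 peaks at least that wide, 4.38% held an E-box and 12.6% an AP-1 match. These matches describe the letters only.

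Atp1b1 RNA was higher than in any control in every stimulated library. Control libraries ranged from 7523 to 8548 normalized counts with a median of 8183. BDNF libraries held 12805 and 12888 after 1 h, 11846 and 12086 after 6 h, and 11291 and 11435 after 10 h. The BDNF values were thus highest at 1 h and then lower at each later time, with no overlap between times. KCl libraries held 11590 and 10673 after 1 h, 19307 and 20027 after 6 h, and 17790 and 17474 after 10 h. KCl at 1 h overlapped BDNF at 10 h, and both later KCl times lay above every BDNF library. The log2 fold changes under BDNF were 0.65 ± 0.05 at 1 h (1.57-fold, limma adjusted p = 3.61e-09), 0.55 ± 0.05 at 6 h (6.44e-08) and 0.48 ± 0.05 at 10 h (8.26e-07). Under KCl they were 0.45 ± 0.05 at 1 h (6.22e-07), 1.27 ± 0.05 at 6 h (2.41-fold, 5.81e-14) and 1.11 ± 0.05 at 10 h (2.16-fold, 8.35e-13). All 6 calls held under every alternative run, with a highest adjusted p of 0.000222 (limma without KCl 1 h library A).

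Atp1b2 (ENSMUSG00000041329) lies on the reverse strand at chr11:69599736-69605942 and has 4085 bp of exons. At 1 h its RNA stayed within the controls, and by 6 h it was lower under both stimuli. Control libraries ranged from 2133 to 2603 normalized counts with a median of 2332. BDNF libraries held 2396 and 2599 after 1 h, 1646 and 1696 after 6 h, and 1657 and 1377 after 10 h. KCl libraries held 2314 and 2409 after 1 h, 1198 and 1207 after 6 h, and 1276 and 1064 after 10 h. All 1 h libraries fell inside the control range, and all libraries of 6 and 10 h fell below it. The log2 fold change was 0.09 ± 0.08 at BDNF 1 h (limma adjusted p = 0.424) and 0.01 ± 0.08 at KCl 1 h (0.93). It was −0.49 ± 0.08 at BDNF 6 h (5.83e-05) and −0.63 ± 0.08 at BDNF 10 h (3.32e-06). Under KCl the fall was larger, at −0.96 ± 0.08 at 6 h (0.513 of controls, limma adjusted p = 1.4e-09) and −1.01 ± 0.08 at 10 h (0.497 of controls, 1.45e-09). These 4 calls held under every alternative, with a highest adjusted p of 0.00428 (limma without BDNF 6 h library A).

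**Figure D2:**
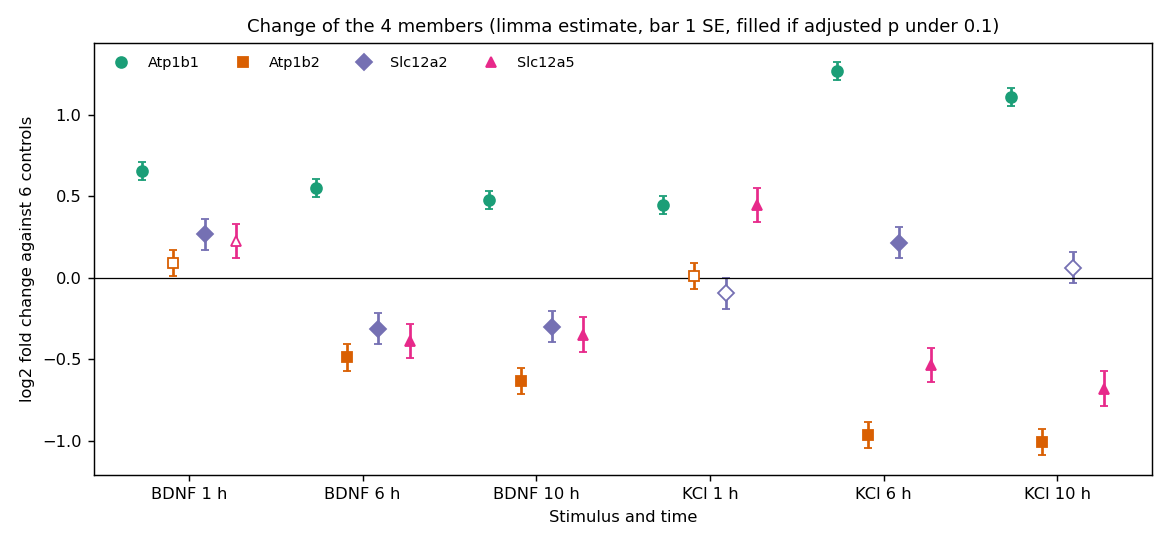
Log2 fold change against the 6 controls (vertical axis) of the 4 genes at each stimulus and time, as limma estimates with bars of 1 SE and filled symbols where the adjusted p was under 0.1. Atp1b1 stands above 0 in all 6 comparisons, with its highest value of 1.27 at KCl 6 h, where Atp1b2 stood at −0.96.

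The ratio of Atp1b2 to Atp1b1 within a library does not depend on the scaling between libraries, and it fell under both stimuli. The mean log2 ratio of normalized counts was −1.80 ± 0.10 (SD, n = 6) in controls, −2.70 ± 0.28 (SD, n = 6) over the BDNF libraries and −3.39 ± 0.90 (SD, n = 6) over the KCl libraries. Each SD spans the 3 times, so under a stimulus it includes the change with time. As a plain ratio of counts it went from 0.287 in controls to 0.14 at BDNF 6 h and 0.133 at BDNF 10 h. Under KCl it was 0.212 after 1 h, 0.0612 after 6 h and 0.0661 after 10 h. No stimulated library reached the control range. An exact permutation test of the difference in mean, with labels exchanged within each time (216 arrangements, two-sided), gave p = 0.00926 for BDNF and for KCl, the smallest these arrangements can give (0.0185 adjusted over 4 ratio tests).

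Levels of different genes were compared per kilobase of exon. Per kilobase, controls had 2651 normalized counts of Atp1b1, 575 of Atp1b2 and 498 of Atp1b3, the third beta subunit gene expressed here. Atp1b1 thus made up 71.2% of the beta subunit RNA in controls (69.2% to 72.6% over 6 libraries), 80.5% at BDNF 6 h and 84.7% at KCl 6 h. The share of Atp1b2 was 15.4% in controls (14.7% to 16.8%), 8.48% at BDNF 6 h, 3.91% at KCl 6 h and 4.24% at KCl 10 h. Atp1b3 lay near 13.4% in controls (12.7% to 14.1%) and 11.4% at KCl 6 h, where its libraries (9.77% and 13.1%) overlapped the control range. In every other stimulated group its share lay below all controls, as at BDNF 1 h (10.6% and 10.9%) and KCl 10 h (10.2% and 12.0%). Atp1b3 rose by 0.78 ± 0.095 (SE) at KCl 6 h and by 0.59 ± 0.095 at KCl 10 h on the log2 scale (limma adjusted p = 5.72e-07 and 3.45e-05). Atp1b1 gained and Atp1b2 lost share at each stimulated time, without overlap with the controls.

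**Figure D3:**
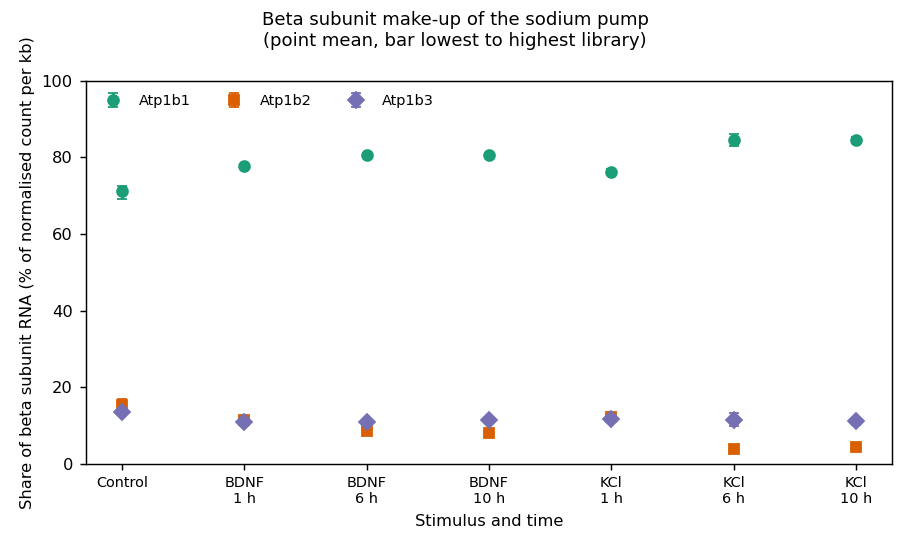
Share of each beta subunit gene (vertical axis, percent of normalized counts per kilobase of exon) in controls (6 libraries) and in each stimulated group (2 libraries), with bars from the lowest to the highest library. Atp1b2 went from 15.4% of the beta subunit RNA in controls to 3.91% at KCl 6 h.

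Of 15 genes of the pump family and its FXYD regulators, 9 passed the filter, with Atp1b1 and Atp1b2 among them. Of all genes, 21.3%, 22.1% and 21.1% were called higher and 19.0%, 21.1% and 19.5% lower at BDNF 1, 6 and 10 h, and 26.5%, 33.4% and 29.0% higher and 28.2%, 33.1% and 28.2% lower at KCl 1, 6 and 10 h, the background for this and the later lists. At BDNF 1 h 3 were higher and 0 lower, at BDNF 6 h 2 higher and 3 lower, and at BDNF 10 h 2 and 3. At KCl 1 h 5 were higher and 0 lower, at KCl 6 h 6 higher and 3 lower, and at KCl 10 h 4 and 4. The median log2 fold change of the list was 0.19, −0.14 and −0.08 at BDNF 1, 6 and 10 h and 0.38, 0.36 and −0.10 at KCl 1, 6 and 10 h. Over all genes these medians lay within 0.01 of 0. The largest fall was that of Fxyd5, a small pump regulator with a low level here, from a mean of 27.0 normalized counts in controls to 8.97 at KCl 6 h and 4.14 at KCl 10 h (log2 fold change −1.45 and −2.52, limma adjusted p = 0.000521 and 1.39e-06).

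Where Atp1b2 was lower, astrocyte markers that were called were lower too, while those of the oligodendrocyte lineage were split. Of the 9 astrocyte markers tested (Gfap, Aqp4, Aldh1l1, Slc1a2, Slc1a3, Gja1, Sox9, Aldoc and Fgfr3), 7 were lower at BDNF 6 h, 4 at BDNF 10 h, 8 at KCl 6 h and 7 at KCl 10 h, and 0 were higher at these times, where 21.1%, 19.5%, 33.1% and 28.2% of all genes were called lower. At 1 h, 2 were higher and 0 lower under BDNF, and 1 was higher and 2 lower under KCl. The median log2 fold change of the list was −0.22 at BDNF 6 h, −0.26 at BDNF 10 h, −0.41 at KCl 6 h and −0.42 at KCl 10 h. The summed normalized counts of the 10 markers were 17272 to 22495 in controls, 16132 and 16704 at BDNF 6 h, and 14326 and 16566 at KCl 6 h. No defining marker was at 0, with control means of 261 for Gfap and 585 for Aqp4. Gfap, the intermediate filament of astrocytes, was at −1.22 at KCl 6 h and −0.98 at KCl 10 h, and Aqp4, the astrocyte water channel, at −1.17 and −0.51. Of the 6 progenitor markers, 3 were lower and 0 higher at BDNF 6 h and at BDNF 10 h, 3 lower and 1 higher at KCl 6 h, and 2 lower and 0 higher at KCl 10 h. The cell cycle genes Mki67 and Top2a fell alongside, by 0.92 and 1.02 at KCl 6 h, while Sox2 was at −0.32 and Nes, a filament of radial glia, at 0.04. Of the 7 oligodendrocyte lineage markers, 1 was higher and 3 lower at BDNF 6 h, 1 and 2 at BDNF 10 h, 2 and 4 at KCl 6 h, and 1 and 1 at KCl 10 h. Their summed normalized counts were 5964 to 6453 in controls and higher at KCl 6 h (6985 and 7400) and KCl 10 h (6741 and 7468). The transcription factor gene Olig1 had the largest part in that sum, with a mean of 2445 normalized counts in controls and 3623 at KCl 6 h (log2 fold change 0.57 ± 0.06, limma adjusted p = 3.53e-08). The part of these cell types in the fall of Atp1b2 was not tested.

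**Figure D4:**
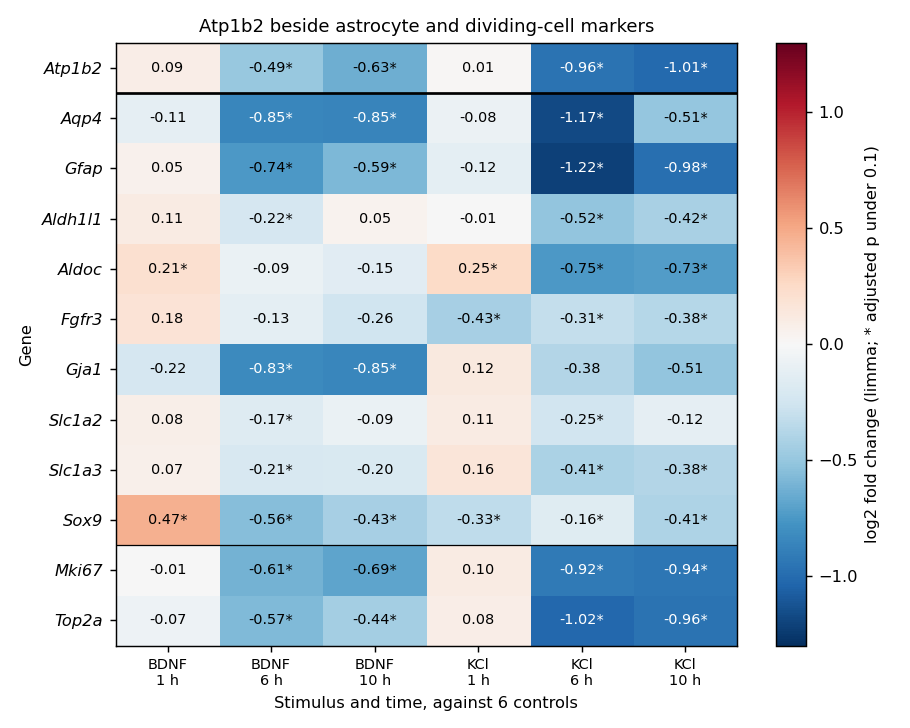
Log2 fold change against the 6 controls (color and number, limma, asterisk where the adjusted p was under 0.1) of Atp1b2 above the line, of 9 astrocyte markers, and of the dividing-cell genes Mki67 and Top2a at the bottom. At KCl 6 h Atp1b2 stood at −0.96, beside −1.17 for Aqp4, −1.22 for Gfap and −0.25 for Slc1a2. The other progenitor markers are not drawn and were split. From controls to KCl 6 h, mean normalized counts went from 519 to 623 for Pax6 and from 2699 to 2829 for Nes. They went from 2569 to 2058 for Sox2 and from 245 to 230 for Hes5.

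Slc12a5 (ENSMUSG00000017740) lies on the forward strand at chr2:164960802-164999731 and has 7447 bp of exons. RefSeq gives it 2 promoters, shown here because ATAC peaks overlap only the internal one. The first (chr2:164960596-164960895, forward strand, 63.7% G and C) lies at the 5′ end of the gene and overlapped 0 peaks. The internal one (chr2:164967738-164968037, forward strand, 68.3% G and C) shares 101 bases with a 487 bp peak whose center is 7.38 kb into the gene. Capitals mark matches to the same 7 motifs.
Slc12a5 first promoter: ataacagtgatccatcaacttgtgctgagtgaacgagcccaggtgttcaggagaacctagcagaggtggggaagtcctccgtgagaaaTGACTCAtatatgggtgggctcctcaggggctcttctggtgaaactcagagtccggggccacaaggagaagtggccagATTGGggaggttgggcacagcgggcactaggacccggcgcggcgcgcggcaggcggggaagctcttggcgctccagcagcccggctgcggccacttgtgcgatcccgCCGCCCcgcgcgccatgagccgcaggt
Slc12a5 internal promoter: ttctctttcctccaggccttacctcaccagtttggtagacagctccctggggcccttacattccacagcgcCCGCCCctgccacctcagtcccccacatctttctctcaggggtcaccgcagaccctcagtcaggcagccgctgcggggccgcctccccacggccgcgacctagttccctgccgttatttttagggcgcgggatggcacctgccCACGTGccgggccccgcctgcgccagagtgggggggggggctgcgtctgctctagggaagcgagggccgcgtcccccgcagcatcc
The first promoter held an AP-1 match at bases 89 to 95, a GC box and a CCAAT box on the other strand. The internal promoter held an E-box at bases 215 to 220 and a GC box on the other strand. An AP-1 match was found in 7.81% and an E-box in 7.15% of the 32851 promoters. No promoter sequence is shown for Atp1b2 and Slc12a2.

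Slc12a5 RNA was higher at 1 h and lower at 6 and 10 h. Control libraries ranged from 1635 to 2030 normalized counts with a median of 1876. BDNF libraries held 2143 and 2196 after 1 h, 1428 and 1410 after 6 h, and 1494 and 1419 after 10 h. KCl libraries held 2493 and 2558 after 1 h, 1433 and 1141 after 6 h, and 1375 and 974 after 10 h. Both stimuli were above all controls at 1 h and below all controls later, and the KCl pairs at 6 and 10 h were wide apart. At KCl 1 h the log2 fold change was 0.45 ± 0.10 (limma adjusted p = 0.00153), and at BDNF 1 h it was 0.23 ± 0.10 and missed the threshold (0.105). That value passed the threshold under 4 alternatives, with a limma adjusted p of 0.0807 with the library letter as a block, 0.0743 without control 1 h library A and 0.0908 without control 10 h library B, and a DESeq2 adjusted p of 0.0985 on whole reads. At BDNF 6 h the log2 fold change was −0.39 ± 0.10 (0.00718) and at BDNF 10 h −0.35 ± 0.10 (0.0157), and the latter call was lost without BDNF 10 h library B (0.157) and against the controls of 10 h alone (0.12). At KCl 6 h it was −0.53 ± 0.10 (0.000198) and at KCl 10 h −0.68 ± 0.10 (2.43e-05), and these calls held under every alternative. Without KCl 10 h library B the latter was −0.43 (0.00429).

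Pan-neuronal markers were set beside Slc12a5, a gene of neurons. Of the 6 markers, 2 were higher and 0 lower at BDNF 1 h, 1 higher and 3 lower at BDNF 6 h, and 0 higher and 3 lower at BDNF 10 h. At KCl 1 h 5 were higher and 1, Tubb3, was lower, with a list median of 0.34 on the log2 scale, and at KCl 6 and 10 h 3 were higher and 2 lower each time, with medians of 0.12 and 0.06. The background shares of all genes given with the pump list apply here too. The summed normalized counts of the 6 markers were 54695 to 60973 in controls, 59691 and 65752 at KCl 1 h, 53089 and 54738 at BDNF 6 h, and 52412 and 59892 at KCl 6 h. Their part in the changes of Slc12a5 was not tested.

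Slc12a2 (ENSMUSG00000024597) lies on the forward strand at chr18:57878678-57946821 and has 10920 bp of exons. Its largest change against controls was smaller than that of any of the other 3 genes, and each of its 4 calls against controls was lost without a single library. Control libraries ranged from 1192 to 1570 normalized counts with a median of 1372. BDNF libraries held 1601 and 1705 after 1 h, 1055 and 1159 after 6 h, and 1117 and 1113 after 10 h. KCl libraries held 1256 and 1313 after 1 h, 1385 and 1831 after 6 h, and 1420 and 1445 after 10 h. The BDNF pairs lay above all controls at 1 h and below all controls later, while every KCl pair overlapped the control range. The log2 fold change was 0.27 ± 0.09 at BDNF 1 h (limma adjusted p = 0.0339), −0.31 ± 0.09 at BDNF 6 h (0.0142) and −0.30 ± 0.09 at BDNF 10 h (0.0201). The adjusted p rose to 0.103 and 0.24 without BDNF 1 h library A or B, to 0.193 without BDNF 6 h library A, and to 0.108 and 0.131 without BDNF 10 h library A or B. Under KCl it was −0.10 ± 0.09 after 1 h (0.433), 0.22 ± 0.09 after 6 h (0.0553) and 0.06 ± 0.09 after 10 h (0.61). The KCl 6 h call rested on library B, without which the log2 fold change was 0.014 (0.921).

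The ratio of Slc12a5 to Slc12a2 set the chloride exporter against the importer within each library. Per kilobase of exon controls had 250 normalized counts of Slc12a5 and 126 of Slc12a2. The mean log2 ratio of normalized counts was 0.43 ± 0.25 (SD, n = 6) in controls and 0.38 ± 0.06 (SD, n = 6) under BDNF, a difference of −0.05 (exact permutation test, p = 0.648). Under KCl it was 0.12 ± 0.72 (SD, n = 6), a difference of −0.32 (p = 0.259, exact permutation test), with values that lay on both sides of the controls. The 2 KCl 1 h libraries stood at 0.99 and 0.96, above all controls (0.14 to 0.77). The KCl libraries of 6 h stood at 0.05 and −0.68 and those of 10 h at −0.05 and −0.57, below all controls. As a plain ratio of counts this was 1.35 in controls, 1.97 at KCl 1 h, 0.803 at KCl 6 h and 0.808 at KCl 10 h. With 2 libraries a time, the single KCl times were not tested.

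Of the 9 SLC12 genes, 7 passed the filter, with Slc12a2 and Slc12a5 among them, so the counts and medians of this list include these genes. At BDNF 1 h 1 was higher and 2 lower, and at BDNF 6 and 10 h 0 were higher and 4 lower each time. At KCl 1 h 1 was higher and 1 lower, at KCl 6 h 3 higher and 1 lower, and at KCl 10 h 2 higher and 1 lower. The list median was −0.39 at BDNF 6 h and 0.22 at KCl 6 h, against medians within 0.01 of 0 over all genes. The KCl 6 h median is the value of Slc12a2 itself, which rested on library B. The BDNF 6 h median equals the value of Slc12a5 to the digits given. Slc12a4, which encodes KCC1, rose by 0.36 and 0.40 at KCl 6 and 10 h. Slc12a8 was barely expressed (mean of 16.6 normalized counts in controls) and stood at −1.14 at BDNF 6 h (limma adjusted p = 0.0103). Slc12a7, which encodes KCC4, was not called in any of these comparisons (−0.54 to 0.16).

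Regulators and partners of these transporters were listed next (15 tested). Between 4 and 7 were higher and between 3 and 7 lower at each stimulated time. Neto2, an auxiliary subunit of kainate receptors that binds KCC2, rose by 0.98 and 0.85 at BDNF 6 and 10 h, from a mean of 4010 normalized counts in controls to 7923 and 7230, and stood at 0.08 at KCl 6 h. Nedd4l, a ubiquitin ligase that acts on sodium transport, fell by 0.86 and 0.69 at BDNF 6 and 10 h. Grik2, a kainate receptor subunit, fell by 0.86 and 0.61 at those times. Cab39l, a cofactor of the kinases that phosphorylate SLC12 proteins, fell by 0.84 at KCl 6 h and 0.61 at KCl 10 h. Of these 4 genes, the first 3 moved most under BDNF and the last under KCl, each with a limma adjusted p of at most 0.000137 in the comparisons named as a rise or fall.

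Chloride channels, bicarbonate transporters and carbonic anhydrases (15 tested) were called higher 7, 5 and 5 times and lower 1, 0 and 0 times at BDNF 1, 6 and 10 h, and higher 4, 8 and 7 times and lower 4, 5 and 3 times at KCl 1, 6 and 10 h. Lrrc8a, the required subunit of volume-regulated anion channels, fell by 1.02 at KCl 1 h and rose by 1.22 and 0.72 at KCl 6 and 10 h. Car2, a carbonic anhydrase, rose by 1.20 at BDNF 6 h, and Clcn6, an endosomal chloride proton exchanger, rose by 0.88 and 0.89 at KCl 6 and 10 h. Ano1, a calcium-activated chloride channel at a mean of 26.4 normalized counts in controls, fell by 1.39 at KCl 6 h (limma adjusted p = 0.000731). Sodium and calcium exchangers and calcium pumps (9 tested) had 2 genes higher and 0 lower at BDNF 1 h and 8 higher and 0 lower at KCl 1 h. At 6 and 10 h of either stimulus the split was 3 higher and 3 lower each time. Slc8a1, the sodium calcium exchanger that depends on the sodium gradient, rose by 1.09 at KCl 10 h, and the plasma membrane calcium pump gene Atp2b3 fell by 1.01 at KCl 6 h.

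Of the transcription factors listed as known to act on Slc12a5, Egr4 changed most. Its mean rose from 4.84 normalized counts in controls to 1319 at BDNF 1 h and 223 at KCl 1 h, and was still 83.8 and 50.1 at 10 h of BDNF and KCl. Egr1 rose from 223 to 10536 at BDNF 1 h and to 1714 at KCl 1 h, and at KCl 10 h it stood at 186. Rest, a repressor of neuronal genes, rose by 0.75 ± 0.12 at BDNF 1 h (limma adjusted p = 4.51e-05) and fell by 0.52, 0.51, 0.84 and 1.07 at the later times of BDNF and KCl. The list is given for context and no relation to Slc12a5 was tested.

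BDNF and KCl were compared with each other at each time in the same limma model. Of the 4 genes, 2 differed at 1 h, 3 at 6 h and 4 at 10 h, where 42.8%, 57.3% and 45.0% of all genes differed. Atp1b1 was higher under BDNF at 1 h by 0.21 ± 0.07 (limma adjusted p = 0.0178, lost without KCl 1 h library B at 0.19) and lower under BDNF by 0.72 ± 0.07 at 6 h (1.6e-08) and 0.63 ± 0.07 at 10 h (1.81e-07). Its order between the stimuli thus turned over between 1 and 6 h. Atp1b2 was higher under BDNF by 0.47 ± 0.10 at 6 h (0.000369) and by 0.37 ± 0.10 at 10 h (0.0046), the latter lost without BDNF 10 h library A (0.119) or KCl 10 h library B (0.118). Slc12a2 was higher under BDNF at 1 h by 0.36 ± 0.12 (0.0178, lost without BDNF 1 h library B at 0.118) and lower under BDNF by 0.53 ± 0.12 at 6 h (0.000751) and 0.36 ± 0.12 at 10 h (0.0182). Slc12a5 did not differ past the threshold at 1 h (−0.22 ± 0.13, adjusted p = 0.2 with limma) or 6 h (0.15 ± 0.13, 0.349). Its call at 10 h (0.33 ± 0.13, 0.0487) was lost without BDNF 10 h library A (0.193) or B (0.105), and without KCl 10 h library B the difference was 0.08 (0.671).

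Levels also changed between the times of a stimulus. Between 1 and 6 h of BDNF 3 of the 4 genes were called, all lower at 6 h, where 33.6% of all genes were called and 17.7% were called lower. Between 1 and 6 h of KCl all 4 were called, where 59.6% of all genes were called. Between 6 and 10 h 0 of the 4 were called by limma under either stimulus, where 0.216% of all genes were called under BDNF and 22.5% under KCl. In order of mean level, Atp1b1 was highest at KCl 6 h, then at KCl 10 h, BDNF 1 h, BDNF 6 h, BDNF 10 h, KCl 1 h and in controls, and of these neighbors only BDNF 10 h and KCl 1 h overlapped. Slc12a5 was highest at KCl 1 h, then at BDNF 1 h and in controls, with no overlap among these, and the 4 later groups below the controls overlapped their neighbors. Slc12a2 was highest at BDNF 1 h and lowest at BDNF 6 h. Among its 5 upper groups each overlapped the next, and the lowest of them, KCl 1 h, did not overlap BDNF 10 h below it.

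Genes were ranked by how closely their 9 group means of log2(normalized count + 1) followed each of the 4 genes, over 13123 genes with a mean of at least 50. With only 9 points and so many genes, close matches are common, so the correlations are descriptions. The 5 genes nearest to Atp1b1 were Stk25, H2-D1, Kcnf1, Hid1 and Fam219a (Pearson r 0.984 to 0.986). Those nearest to Atp1b2 were Axl, Fbxo7, Ssbp3, Mki67 and Plxnc1 (0.977 to 0.99). Those nearest to Slc12a2 were Enah, Rnf24, Lrrc8c, Map3k3 and Sertad2 (0.949 to 0.961), and those nearest to Slc12a5 were Mgll, Mfge8, Hnrnph3, Fam117b and Fzd8 (0.97 to 0.98). The voltage-gated potassium channel gene Kcnf1 went from 362 normalized counts in controls to 926 at BDNF 1 h and 1463 at KCl 6 h.

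Open chromatin was measured at 8 ATAC peaks within the 4 genes or 10 kb of them. A peak was called when its adjusted p in the edgeR quasi-likelihood test over all 56383 peaks was under 0.1, on counts with LOESS scaling. Of the 24 peak and time combinations, 5 were called under BDNF and 1 under KCl. Called peaks made up 17.3%, 10.6% and 9.36% of all peaks at BDNF 1, 6 and 10 h and 8.31%, 7.56% and 7.88% at KCl 1, 6 and 10 h. The promoter peaks of Atp1b1 (chr1:164457570-164458717) and Atp1b2 (chr11:69605526-69606171) were called at no time, although the RNA of both genes changed. At the Atp1b1 promoter, controls ranged from 205 to 267 scaled counts with a median of 245, and the 12 stimulated libraries lay between 165 and 286.

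The peak upstream of Atp1b1, whose sequence is given above, opened under BDNF. It also lies in the promoter window of the long noncoding RNA Gm32391. Controls ranged from 20.0 to 29.3 scaled counts with a median of 22.7. BDNF libraries held 60.7 and 62.3 after 1 h, 55.7 and 43.1 after 6 h, and 46.7 and 39.3 after 10 h. KCl libraries held 36.1 and 34.9 after 1 h, 34.9 and 42.7 after 6 h, and 34.2 and 24.5 after 10 h. All BDNF libraries were above all controls, and so were the KCl libraries of 1 and 6 h. The log2 fold change was 1.36 ± 0.27 at BDNF 1 h (edgeR adjusted p = 3.22e-05), 1.03 ± 0.28 at 6 h (0.00553) and 0.84 ± 0.31 at 10 h (0.0928). The first held under every alternative, the second was lost without BDNF 6 h library A (0.222) and against the controls of 6 h alone (0.164), and the last was lost without either BDNF 10 h library (0.458 and 0.202) and without control libraries 1 h B, 6 h B, 10 h A or 10 h B (0.143, 0.109, 0.117 and 0.134). Under KCl the values of 0.57 ± 0.29, 0.65 ± 0.32 and 0.29 ± 0.32 were not called (0.253, 0.272 and 0.695). BDNF against KCl at 1 h gave 0.79 ± 0.33 (edgeR adjusted p = 0.107), short of the threshold. None of the 8 peaks was called between the stimuli at any time, where 14.8%, 3.6% and 2.02% of all peaks were.

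The peak at the internal promoter of Slc12a5 (chr2:164967937-164968423) had 45.9 and 52.3 scaled counts at BDNF 1 h, above the controls (23.9 to 37.6, median 29.0). Its log2 fold change of 0.74 ± 0.30 was called (edgeR adjusted p = 0.0857) and lost without BDNF 1 h library A or B (0.209 and 0.437) and without control libraries 1 h B, 6 h A or 10 h B (0.122, 0.146 and 0.129). At KCl 6 h it held 20.7 and 7.92 and at KCl 10 h 15.8 and 14.6, below all controls, at −0.81 ± 0.39 and −0.95 ± 0.37 (adjusted p 0.249 and 0.129 with edgeR), not called. The raw count in the shallow KCl 6 h library was 3. At BDNF 1 h, KCl 6 h and KCl 10 h the log2 fold change of Slc12a5 RNA was 0.23, −0.53 and −0.68. At BDNF 6 h the peak held 34.0 and 40.4 scaled counts, at BDNF 10 h 14.8 and 26.8, and at KCl 1 h 28.0 and 32.2. Slc12a5 RNA was below all controls at BDNF 6 and 10 h and above them at KCl 1 h. The direction of peak and RNA was thus not the same at every time, and a relation between the measures was not tested.

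The Slc12a2 promoter peak (chr18:57877847-57879047) held 348 and 383 scaled counts at KCl 6 h, against 233 to 303 in controls, a log2 fold change of 0.37 ± 0.11 (edgeR adjusted p = 0.0347). The call was lost without either KCl 6 h library (0.16 and 0.256) and under TMM scaling, where the value was 0.17 (0.433). DESeq2 size factors and the DESeq2 test lost it too (0.585 and 0.646). A peak 7091 bp beyond the 3′ end of Atp1b2 (chr11:69592184-69592645) was lower at BDNF 10 h, with 4.91 and 20.6 scaled counts against 20.9 to 42.3 in controls (−1.29 ± 0.42, edgeR adjusted p = 0.0424). Without BDNF 10 h library A, which held 3 raw reads there, the value was −0.69 (0.622). The 2 intronic peaks of Slc12a5 were called at no time.

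**Figure D5:**
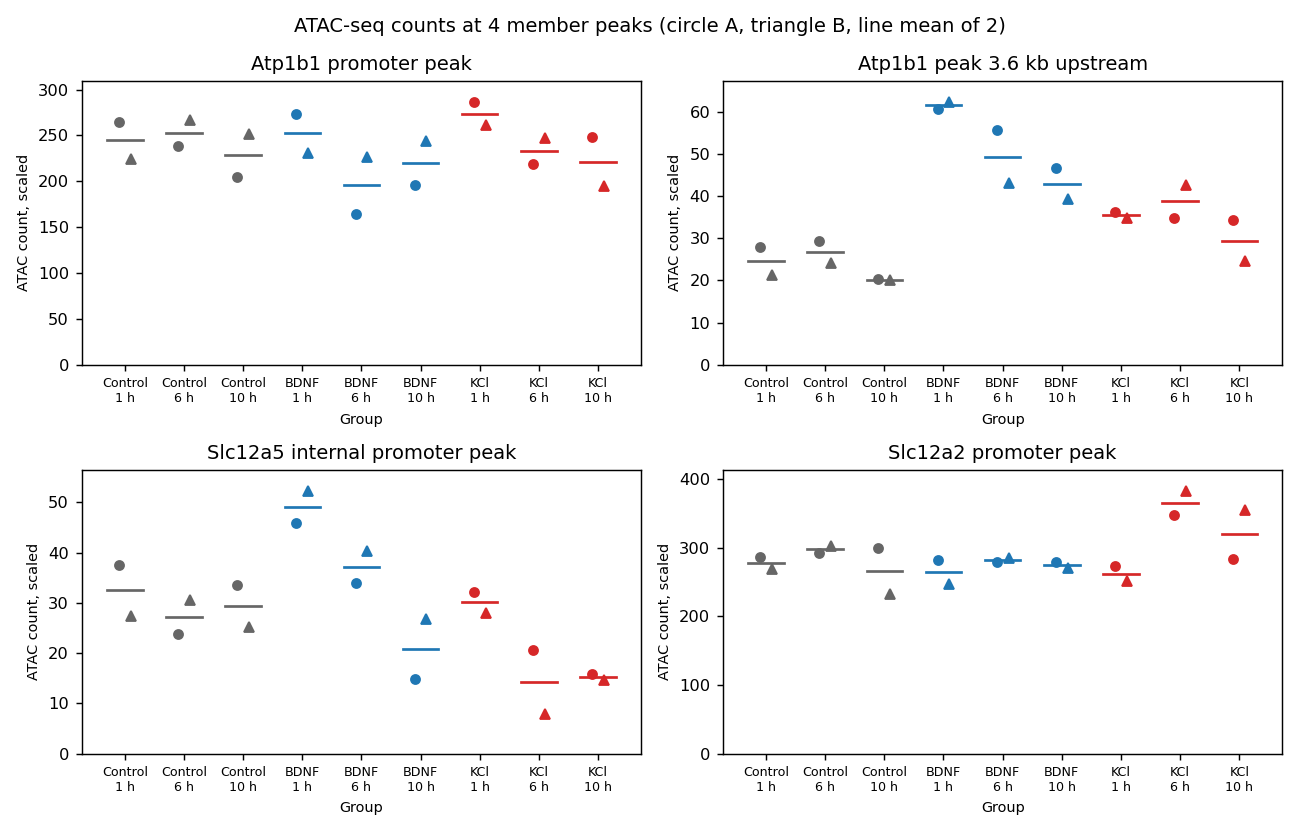
Scaled ATAC counts (vertical axes, from 0) in each library at the promoter peak of Atp1b1, the peak upstream of Atp1b1, the internal promoter peak of Slc12a5 and the promoter peak of Slc12a2, by stimulus and time (circles library A, triangles library B, which are not known to pair, lines the mean of 2). The upstream peak reached 62.3 at BDNF 1 h against at most 29.3 in controls.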

How the data were processed

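Per the labels and the study's methods, the authors aligned RNA reads with TopHat2 to mm10, counted them on GENCODE M16 and deposited counts divided by a DESeq2 size factor, a signal whose values came out as whole reads in 100% of cases within 0.01 read. The authors aligned ATAC reads with Bowtie2, called peaks with MACS2 and deposited counts per peak. The study describes these counts as normalized, but they are whole numbers whose library totals differ (1241829 to 6236439), so they were treated here as unscaled reads, and a scaling before deposit cannot be told from the values. The counting strand is not given in the sources used here. Columns of the authors' own comparisons (fold changes and p-values) were not used, except that their table paired 24184 gene IDs with symbols.

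RNA was fitted with limma 3.58.1 (R 4.3.3, trend and robust) on log2(value + 1) for genes with a mean of at least 10, with 7 levels (1 for all controls), and called at an adjusted p under 0.1. ATAC was fitted with the edgeR 4.0.16 quasi-likelihood test with LOESS offsets. Alternatives used edgeR and DESeq2 1.42.0 on whole reads, other scalings, filters, controls of the same time, and leaving out each library. Scripts were tested on simulated data. The precision is set by 2 libraries per group, which the study calls biological replicates. Replicates differed by more than counting noise (chi-square per degree of freedom 2.44 to 39.6 for RNA and 2.06 to 2.58 for ATAC), and 0 pairs were identical. The 39.6 was that of the KCl 6 h RNA pair, and the next highest RNA value was 10.4, for controls of 1 h. Gene coordinates are GENCODE M21 on GRCm38.

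The 4 genes and all lists were chosen with earlier results of these data known. Genes named are the 4 members, Atp1b3, up to 4 called genes per list with the largest change, and the 5 genes nearest to each member. Slc12a7, Nme7 and the marker genes given by value fall outside this rule and were chosen after their values were seen. Some listed genes are not reported here by name. Library letters were not used to pair the RNA samples, except in the alternative with the letter as a block.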

Additional observations from a re-analysis of the deposited data

Results flagged for a closer look

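Levels of the 4 genes differed between 1 and 6 h of the same stimulus in 7 of 8 tests (BDNF and KCl, 4 genes each), and in 0 of 8 between 6 and 10 h, each by a limma test of the difference itself. Of all genes, 33.6% under BDNF and 59.6% under KCl were called between 1 and 6 h, and 0.216% and 22.5% between 6 and 10 h. Under BDNF, Slc12a5 was at −0.61 ± 0.13 (6 h minus 1 h, log2 scale, adjusted p = 0.00135 with limma), Slc12a2 at −0.58 ± 0.12 (0.00079) and Atp1b2 at −0.58 ± 0.10 (0.00013). Under KCl, Slc12a5 was at −0.98 ± 0.13 (limma adjusted p = 3e-06), Atp1b2 at −0.97 ± 0.10 (4.71e-08), Atp1b1 at 0.82 ± 0.07 (1.95e-09) and Slc12a2 at 0.31 ± 0.12 (0.0296). The groups did not overlap in any of these contrasts. The Slc12a2 rise under KCl was lost without KCl 6 h library B, at 0.11 (0.472), and without KCl 1 h library A, at 0.28 (0.127). The 6 control libraries were also searched for 1 library far from the other 5, in 14 measures (4 genes, 2 ratios and 8 peaks), and 0 were found. Stimulated groups of 2 libraries are too small for this search.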

How the results depend on the processing

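Over all alternatives, the calls of the 4 genes against controls ranged from 6 to 11 under BDNF (10 as reported) and from 8 to 9 under KCl. An adjusted p under 0.01 left 6 under BDNF, 5 between BDNF and KCl (9 as reported), 2 ATAC calls under BDNF (5 as reported) and 0 under KCl (1 as reported). Controls of the same time left 2 ATAC calls under BDNF and 0 under KCl. Peaks within genes and promoters alone left 1 under BDNF, DESeq2 size factors gave 2 under KCl, and an extension of 50 kb gave 2 under KCl and 1 between stimuli (0 as reported). Leaving out 1 library gave 3 to 5 ATAC calls under BDNF, 0 to 1 under KCl and 0 to 1 between stimuli, and put the Slc12a5 to Slc12a2 difference under BDNF between −0.11 and 0.012. Each such fit with a lone library assumes that it varies like the other groups. Atp1b2 at KCl 1 h changed sign (−0.047 with controls of the same time, −0.019 to 0.041 without 1 library), as did Slc12a5 between stimuli at 6 h (−0.015 to 0.31 without 1 library). The Atp1b2 to Atp1b1 difference stayed between −0.98 and −0.84 under BDNF and between −1.84 and −1.46 under KCl. Beyond those causes shown by fewer samples or a stricter threshold, the cause was not tested. With the library letter as a replicate block, 11 calls were made under BDNF, 9 under KCl, 9 between stimuli and 7 between times, and the added call was Slc12a5 at BDNF 1 h (limma adjusted p = 0.0807), while no other call of the 4 genes changed. Deviations of same-letter libraries correlated from −0.31 to 0.42, with a median of 0.06 (13 of 36 pairs over 0.1). The log2 Slc12a5 to Slc12a2 ratio was higher in library A than in B in every group but control 10 h (0.20 and 0.60). Whether the letters pair the RNA samples is thus not settled, and the ratio tests did not use them. No paired analysis was possible for ATAC because its column names do not say which numbered sample each holds. Shallow ATAC counts limit the smaller peaks.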
